A study of Homo sapiens with 17 samples.

Results

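RNA that came down with ORF2p, the enzyme of the LINE-1 (L1) retrotransposon, was compared with RNA from a mock pull-down, repeat by repeat. The members were chosen by coverage: every annotated repeat locus with a summed estimated count of at least 100 over the 17 labelled libraries was tested singly, and every subfamily was tested as the sum of its loci. That took in 347398 of the 3594049 loci in the deposited table and 1074 of its 1080 subfamilies, and 7 of the 17 libraries, 4 of the ORF2p RIP and 3 of the mock IP, carried the comparison. A locus or subfamily was called higher or lower where edgeR's quasi-likelihood test gave a Benjamini-Hochberg adjusted p under 0.05 and the fitted change was at least 2-fold. On that rule 72 subfamilies (6.7% of those tested) were higher in the ORF2p RIP and 16 (1.49%) were lower, 8.19% in either direction, and 29006 loci (8.35%) were higher and 29223 (8.41%) lower, 16.8% in either direction. The 17 libraries include the 7 compared, so a locus could pass the minimum on the reads of the group where it is high. Without the ORF2p RIP reads 8297 (28.6%) of the loci called higher would have fallen under 100, as would 6168 (21.1%) of those called lower without the mock IP reads. Counts of called loci are therefore given as descriptions. The shares of all loci and subfamilies called are the background against which each group of repeats below is read. Called or not, 616 of the 1074 subfamilies and 105080 of the 347398 loci had no overlap between the libraries of the groups. Lack of overlap is therefore common, and it was a condition for the features named by size of change. It is given below only as a description.

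All groups came from N2102Ep, an established human embryonal carcinoma line. In RIP-seq, RNA-protein complexes are captured with an antibody and the RNA attached to them is sequenced. The ORF2p RIP used anti-ORF2, the descriptions of the mock IP carry mIgG, and both groups and total RNA share the source label N2102Ep clone 2/A6, with no drug, knockout or time point named. Whether that mock matches the anti-ORF2 antibody is not stated. The other labelled libraries, 4 of an ORF1p RIP and 6 of total RNA, entered the fit to share its estimate of the spread. Total RNA came in a series of 2 libraries marked b and a series of 4 marked bl, marks that the labels do not explain. Nothing says that libraries of a group came from separate cultures, so a p-value speaks only to how far these libraries vary, and that variation may be technical. The ORF2p RIP libraries carry sample-sheet numbers 1 to 4 and the mock IP libraries 25 to 27. Whether they were prepared or sequenced together is not stated, so any effect of a run cannot be told apart from that of the antibody.

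L1 is the only family of retrotransposons in the human genome that still moves with its own enzymes. Its full-length transcript encodes ORF1p, an RNA chaperone, and ORF2p, which nicks DNA and copies RNA back into DNA at the nick. ORF2p is known to act preferentially on the transcript that encoded it, and Alu elements are known to borrow it. Most L1 copies are cut short at the 5′ end and cannot make either protein. Subfamilies are numbered roughly by age: L1HS is the youngest and only active one, L1PA2, L1PA3 and so on are successively older primate subfamilies, and the L1M subfamilies are older still.

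Between 9795032 and 17056092 repeat reads were counted in each ORF2p RIP library and between 12703395 and 16271143 in each mock IP library. The tested loci held 85.2% to 85.9% of those reads in the ORF2p RIP and 78.7% to 79.9% in the mock IP. Across loci, which are not independent replicates, log-scale levels of a pair of libraries correlated at 0.718 to 0.794 within the ORF2p RIP, 0.806 to 0.818 within the mock IP and 0.495 to 0.557 between the groups. Genes were not counted in the table, so the cell line could be checked only through repeats inside gene spans. Such repeats had reads in every library of both groups for POU5F1, NANOG, LIN28A, LIN28B, DPPA4, DNMT3B, L1TD1, ZFP42 and LINC-ROR, 9 of 11 pluripotency genes listed, and SOX2 and ESRG had no countable locus. HERVH-int, a provirus marking pluripotent cells, was abundant in both groups. Of 6 genes of other cell types, ALB, AFP, PTPRC, GFAP and COL1A1 stayed under 1 CPM in both groups and COL1A2 between 2.23 and 4.79 CPM.

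A stretch of sequence shows what a member looks like. No genome of the files' build was used here, so sequence could be read only where a RefSeq promoter window lay wholly inside an L1 copy called higher, which was so for 3 windows. Of these, the copy with the most ORF2p RIP reads was an L1PA16 element at chrX:116748806-116751876 (hg38, minus strand), 3071 bases long and 20.7% diverged from its consensus. Its CPM was 9.68, 8.97, 7.64 and 11.2 in the ORF2p RIP and 2.87, 2.07 and 2.03 in the mock IP. The groups did not overlap, and the fitted change was 2.01 on the log2 scale (SE 0.56, adjusted p = 0.0140). The window chrX:116751227-116751526 (RefSeq, GRCh38.p14, minus strand) covers bases 351 to 650 of this copy. It is printed 5′ to 3′ with capitals from the annotated start of the RefSeq gene LOC105373320 onward, so the copy also holds the start of an annotated transcript.
L1PA16 copy, bases 351 to 650: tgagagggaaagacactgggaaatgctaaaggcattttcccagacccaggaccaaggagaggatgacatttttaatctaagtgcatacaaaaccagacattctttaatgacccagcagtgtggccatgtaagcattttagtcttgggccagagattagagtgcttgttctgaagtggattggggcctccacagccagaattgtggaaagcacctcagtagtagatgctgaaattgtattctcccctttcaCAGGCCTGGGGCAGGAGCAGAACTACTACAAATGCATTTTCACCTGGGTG

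L1 RNA made up a larger part of the ORF2p RIP than of the mock IP. L1 took 46.6%, 50.5%, 49.5% and 47.2% of repeat reads in the 4 ORF2p RIP libraries and 25.9%, 28.2% and 26.3% in the 3 mock IP libraries, means of 48.5% ± 1.86 (SD, n = 4) and 26.8% ± 1.20 (SD, n = 3). Every ORF2p RIP library was above every mock IP library. The exact two-sided permutation test gave p = 0.0571, the smallest that 4 against 3 libraries can give, and the same after adjustment over the 11 shares tested. Total RNA lay on both sides of the mock IP: L1 took 24.5% to 25.5% of repeat reads in series b and 41.0% to 44.0% in series bl, the latter still below the ORF2p RIP. Copies of at least 6000 bases, taken here as full length, separated further. They held 9.08%, 9.09%, 8.44% and 8.37% of ORF2p RIP reads against 2.00%, 1.98% and 1.78% of mock IP reads, 1.27% to 1.42% in total RNA series b and 2.25% to 3.57% in series bl. The RIP and mock IP values are shares of the RNA recovered in bulk pull-downs. They do not measure how much of an RNA the cells held, or in how many cells.

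**Figure D1:**
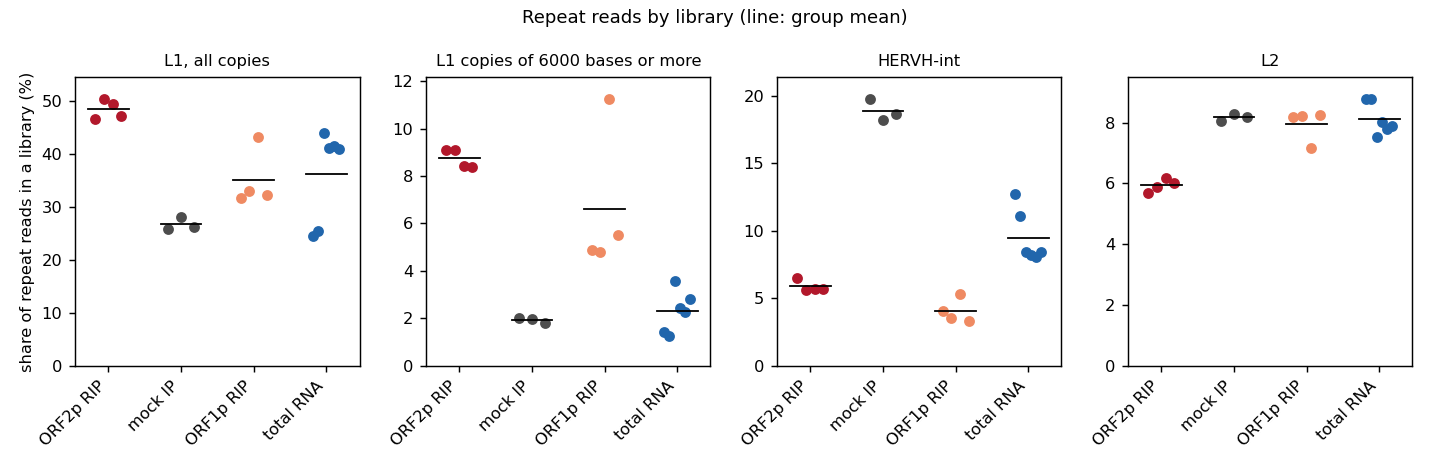
Each point is the share of repeat reads (%, vertical axes from 0) in 1 library of the ORF2p RIP, mock IP, ORF1p RIP and total RNA groups for all L1 copies, L1 copies of 6000 bases or more, HERVH-int and L2, and the line is the group mean. ORF2p RIP points lie above all mock IP points for both L1 measures (8.37% to 9.09% against 1.78% to 2.00% for full-length copies) and below them for HERVH-int and L2.

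The youngest L1 subfamilies were all higher. L1HS stood at 17898, 17154, 15957 and 15720 CPM in the ORF2p RIP and at 1864, 1829 and 1686 CPM in the mock IP, where CPM is edgeR's counts-per-million unit over repeat reads, with TMM factors. No libraries overlapped, and the fitted log2 change was 3.22 (SE 0.48, edgeR adjusted p = 0.000123), or 9.31-fold. L1PA2 stood at 47204, 46816, 41973 and 41643 CPM against 6006, 5726 and 5160 CPM, a fitted log2 change of 2.98 (SE 0.46, adjusted p = 0.000158). L1PA3 stood at 43025, 44565, 41752 and 39542 CPM against 8431, 8297 and 7543 CPM, a fitted log2 change of 2.38 (SE 0.38, adjusted p = 0.000183). The fitted change was thus smaller with each step back in age, although their ranges of 1 SE on either side overlap from each to the next. Of L1PA4 to L1PA8A, 5 of 6 subfamilies were called, with fitted log2 changes from 1.59 for L1PA7 to 1.76 for L1PA5. L1PA8 was not, at 0.43 (SE 0.20, adjusted p = 0.121).

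Older L1 subfamilies were higher too, but in many of them a few loci carried the change. In all 40 of 132 L1 subfamilies (30.3%) were called higher and 0 lower, beside 72 and 16 of all 1074. No L1 subfamily was lower at an unadjusted edgeR p under 0.05 or by DESeq2 either, and their median fitted log2 change was 0.58 against -0.03 over all subfamilies. L1PA17 had the largest change of any named subfamily, with 18293 ± 1488 CPM (SD, n = 4) against 1526 ± 75.9 CPM (SD, n = 3) and a log2 change of 3.58 (SE 0.37, adjusted p = 2.87e-06). A single locus held 49.4% of its ORF2p RIP reads. The leading locus held 88.2% of the reads of L1M3de (log2 change 3.39), 53.5% of L1ME3C (3.39), 41.1% of L1M6B (3.07) and 37.8% of L1PA13 (2.19). In L1HS, L1PA2 and L1PA3 it held only 3.59%, 5.01% and 6.66%. With the leading locus of every subfamily left out, 37 subfamilies were higher, 30 of them L1, and 9 lower. Outside L1 the same step took the log2 change of LTR22A from 2.54 to -0.56 and that of MLT1E3 from 2.28 to 0.15, so these subfamily calls each rested on 1 locus.

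At single loci, the share called higher followed both age and length among the younger L1 copies. Of the tested L1HS loci 763 of 878 (86.9%) were higher and 0 lower (2 at an unadjusted edgeR p under 0.05, 1 by DESeq2), of L1PA2 1706 of 2070 (82.4%) and 8 lower, and of L1PA3 2646 of 3963 (66.8%) and 28 lower. L1PA4 to L1PA8A gave 2991 of 9728 (30.7%), and L1PA10 to L1PA17 with L1PB 1138 of 9258 (12.3%). The L1MB loci, with 764 of 11236 (6.8%), and the L1MC and L1MD loci, with 1366 of 18846 (7.25%), were no more often higher than the 8.35% of all loci. The same held for L1ME, at 7.5%. L1MA, at 8.99%, and other L1M, at 9.45%, lay slightly above it, and other L1P, with 639 of 2775 (23.0%), well above. All L1 together gave 16847 higher and 6804 lower of 117367, which is 58.1% of all loci called higher and 23.3% of those called lower. The L1 loci called lower were 12798 with library totals, and 3808, 3802 and 4209 without mock IP replicates 1, 2 and 3.

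Among copies of at least 6000 bases, 301 of 307 L1HS (98.0%), 954 of 977 L1PA2 (97.6%) and 1192 of 1361 L1PA3 (87.6%) were higher, and 0 of these 2645 were lower, also at an unadjusted edgeR p under 0.05 and by DESeq2. Their median fitted log2 change was 3.03. Of the 2447 called, 52 (2.13%) passed the minimum only with their ORF2p RIP reads. Among copies under 500 bases the shares were 26 of 48, 27 of 94 and 31 of 161. By divergence from the consensus, 76.4% of L1 loci under 2% diverged were higher and 59.6% of those from 2% to 5%. The share was 25.4% from 5% to 10% and 10.6% from 10% to 15%. Beyond that it stayed level, at 7.83% from 15% to 20%, 7.93% from 20% to 25% and 8.07% at 25% or more. Copies of a young subfamily are nearly identical and share reads that match many of them, and short copies collect fewer reads. Their calls are therefore not independent of each other, and the part of coverage in these trends was not tested.

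**Figure D2:**
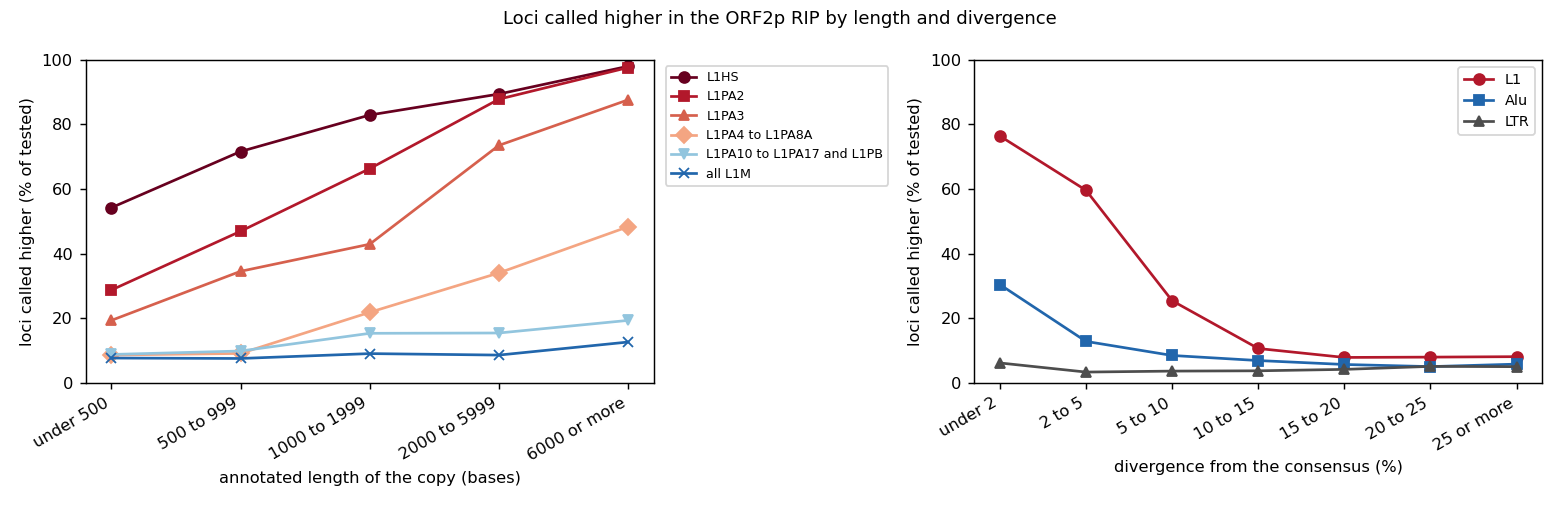
Loci called higher in the ORF2p RIP as a percentage of those tested (vertical axes) by annotated length of the L1 copy in bases (left, 1 line per subfamily or set of subfamilies) and by divergence from the consensus in % (right, L1, Alu and LTR loci). The lines rise with length for the young subfamilies, to 98.0% for L1HS of 6000 bases or more, and those of L1M stay near the 8.35% of all loci up to 6000 bases.

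Summed over loci, full-length L1HS reached 12107, 11289, 9965 and 10368 CPM in the ORF2p RIP and 1114, 1061 and 971 CPM in the mock IP, 10.4 times as much by the means. Shorter L1HS copies reached 7.94 times as much. For L1PA3 the full-length sums were 28014, 27983, 25728 and 25001 CPM against 4192, 3909.8 and 3577 CPM, or 6.85 times, and the shorter copies 3.78 times. For L1HS, L1PA2 and L1PA3, full-length copies took a larger part of the subfamily's reads in the ORF2p RIP. Their share was 63.2% ± 1.45 (SD, n = 4) against 48.1% ± 1.43 (SD, n = 3) in L1PA3, 65.5% ± 2.18 against 58.5% ± 1.18 in L1HS and 73.0% ± 0.873 against 68.0% ± 0.965 in L1PA2. No libraries overlapped between the groups in any of these (exact permutation p = 0.0571 each). By summed reads older subfamilies had no common direction. The ratio was larger for full-length than for shorter copies in L1PA5 (4.88 against 2.79 times) and L1PA7 (4.996 against 2.71 times). It was smaller in L1PA4 (3.18 against 3.52 times) and L1PA6 (2.87 against 3.69 times). Single loci weigh in such sums, as the leading locus held 24.3% of ORF2p RIP reads in L1PA5 and 11.2% in L1PA4. By locus, full-length copies were more often called higher than shorter ones in all of these. The shares were 63.5% against 39.4% in L1PA4, 45.8% against 26.2% in L1PA5, 38.9% against 22.9% in L1PA6 and 26.1% against 13.9% in L1PA7. Beside total RNA the picture differed by subfamily. L1PA3 full-length shares were 52.4% to 57.3% there, all under the ORF2p RIP, whereas those of L1PA2 were 70.9% to 74.1% and overlapped it. The ORF1p RIP had 75.2% to 77.3% for L1HS, above all 4 ORF2p RIP libraries.

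Among single full-length copies of L1HS, L1PA2 and L1PA3 called higher, the 5 with the most reads were 4 L1PA3 and 1 L1PA2, and none was L1HS. Called copies of this length in L1PA5, L1PA7 and L1PA8A, described below, had more reads than 4 of them. An L1PA3 copy at chr19:20807725-20813827, outside any RefSeq gene span, had 2998, 2959, 2663 and 2625 CPM in the ORF2p RIP against 146, 140.4 and 109.7 CPM in the mock IP. The groups were far apart, with a log2 change of 4.41 (SE 0.53, adjusted p = 1.98e-06). The others lay at chr1:121574290-121580421, chr20:53455563-53461566 and chrX:131378335-131384369 (L1PA3) and at chr4:11235218-11241254 (L1PA2). Their means ran from 275 to 723 CPM against 15.98 to 40.9 CPM, with log2 changes from 3.29 to 4.43. The L1HS locus with the most reads was not full length: a copy of 1949 bases at chr3:26728189-26730137 with 325, 633, 946 and 514 CPM against 0.855, 30.2 and 24.7 CPM. Its libraries did not overlap, but within each group they differed widely. The log2 change was 5.02 (SE 1.10, with the spread of all 17 libraries, edgeR adjusted p = 0.00214).

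The loci with the largest differences in level were mostly old L1 fragments inside genes. An L1PA17 fragment of 1170 bases at chr19:21967686-21968855, in the span and on the strand of ZNF208, a gene of the KRAB zinc finger family, had 8440, 9716, 9681 and 8314 CPM in the ORF2p RIP. In the mock IP it had 262, 279 and 246 CPM, and the log2 change was 5.11 (SE 0.68, adjusted p = 7.29e-06). A second L1PA17 fragment at chr19:21966117-21967442 had 6929 ± 566 CPM (SD, n = 4) against 191 ± 23.0 CPM (SD, n = 3). An AluSx of 243 bases between the fragments, and an AluY just beyond, were higher by 4.51 and 4.61 on the log2 scale, so repeats of several families along this stretch of ZNF208 were higher together. In total RNA the 1170-base fragment averaged 98.5 CPM in series b and 890 CPM in series bl.

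SPOCK3, a gene of a secreted proteoglycan, holds on its opposite strand an L1PA5 copy of 6160 bases at chr4:166743490-166749649, which had 5705, 5589, 5243 and 4965 CPM against 119, 116 and 111 CPM. The groups lay far apart, with a log2 change of 5.54 (SE 0.60, adjusted p = 3.91e-07). An L1PA13 fragment at chr6:131919320-131921049 in CCN2-AS1, a long noncoding RNA, had 5331 ± 138 CPM against 193 ± 11.997 CPM. An L1MB8 fragment at chr7:122074095-122074821 in AASS, which encodes an enzyme of lysine breakdown, had 3148 ± 129 CPM against 99.0 ± 8.67 CPM. JPX, a long noncoding RNA of the X inactivation centre, holds the L1M3de fragment at chrX:73999207-73999999 that carried that subfamily, with 848 ± 37.8 CPM against 35.01 ± 1.13 CPM. None of these loci overlapped between the groups. Of the 10 loci with the largest differences, the only one that is not a LINE was a HERVK-int provirus at chr22:23538730-23546008. It had 8001 ± 439 CPM against 1954 ± 177 CPM and a log2 change of 2.03 (SE 0.39, adjusted p = 0.000592), beside 1898 CPM in total RNA series b and 5049.6 CPM in series bl.

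**Figure D3:**
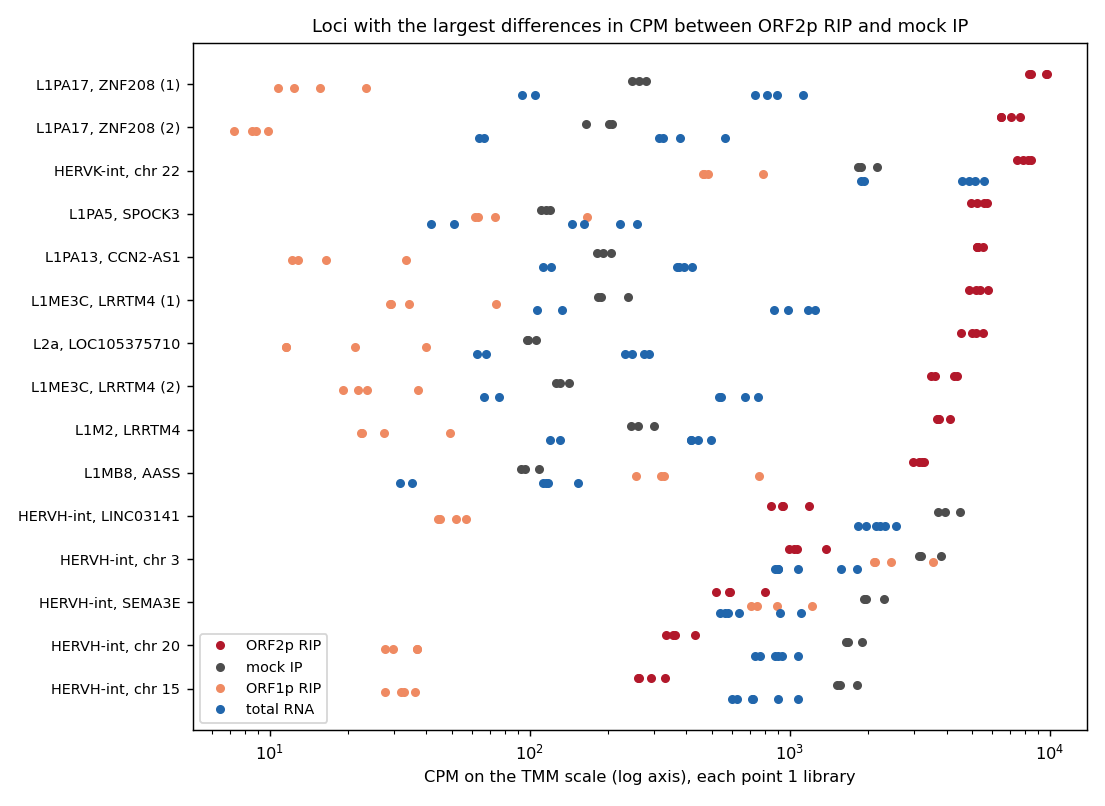
CPM on the TMM scale (log axis) in each library of the 4 groups for the 10 loci called higher and the 5 called lower with the largest difference in mean CPM, 1 row per locus named by subfamily and gene span or chromosome. ORF2p RIP points stand to the right of the mock IP in the upper 10 rows (8314 to 9716 against 246 to 279 CPM in the top row) and to the left in the HERVH-int rows, and the total RNA points split into 2 series in most rows.

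The loci that led the intermediate L1PA subfamilies were as far apart between the groups. They were an L1PA6 at chr2:49227587-49231532 with 1466 ± 227 CPM (SD, n = 4) against 80.8 ± 6.61 CPM (SD, n = 3), an L1PA7 at chr5:85582242-85588699 with 1837 ± 155 CPM against 97.8 ± 10.7 CPM, and an L1PA8A at chrX:98880536-98886909 with 1537 ± 134 CPM against 67.3 ± 6.77 CPM. Their log2 changes ran from 4.18 to 4.51. The L1PA8A locus held 51.3% of its subfamily's ORF2p RIP reads, and without it the subfamily changed by 0.83 and was no longer called. Even in L1PA8, which was not called as a subfamily, the leading copy, at chrX:57458530-57464428 in FAAH2, had 138 ± 21.4 CPM against 16.3 ± 4.07 CPM (log2 change 3.09, SE 0.59, adjusted p = 0.000558). HERVK-int resembled L1PA8 in this: its leading provirus held 47.5% of its ORF2p RIP reads and was called, while the subfamily, at 0.70 (SE 0.34, adjusted p = 0.122), was not.

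Loci outside genes were more often higher, in L1 and in other repeats. Outside RefSeq gene spans 7834 of 28675 L1 loci (27.3%) were higher, against 2532 of 27717 (9.14%) inside a single span on the gene's strand and 3376 of 35525 (9.50%) on the opposite strand. With L1HS, L1PA2 and L1PA3 set aside the shares were 19.6%, 7.47% and 6.98%. Over all loci they were 15.6%, 6.7% and 5.82%, in Alu 12.7%, 7.76% and 4.5%, and in L2 with MIR 6.51%, 3.74% and 3.94%. Spans come without exons, so exonic and intronic copies could not be separated, and the table counts by locus with no strand of the reads. Weighted by reads, older L1 inside spans lay on the gene's strand for 60.6% to 60.8% of reads in the ORF2p RIP and 46.5% to 50.4% in the mock IP (exact permutation p = 0.0571, adjusted p = 0.0571). Total RNA spanned both, with 37.9% to 39.2% in series b and 62.4% to 66.4% in series bl, so the total RNA series lay farther apart in this share than the RIP and the mock did. For repeats other than L1 the shares were 46.4% to 46.8% and 42.9% to 43.2%.

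Loci called higher stood close together, and so did those called lower. Of the 29006 higher loci 19054 lay within 10000 bases of another, as did 20924 of the 29223 lower loci. Neighbours can lie on the same transcript and are then not separate observations. Outside L1, 6326 of 31136 loci (20.3%) that started within 10000 bases of the start of an L1 locus called higher were themselves higher. Of those with no such L1 locus, 5833 of 198895 (2.93%) were. By gene span, the 16107 higher loci inside exactly 1 span fell in 5365 spans. ERCC6, which encodes a factor of transcription-coupled DNA repair, had 29 of 34 tested repeats higher, 19 of them L1, with a median log2 change of 4.83. Its repeats summed to 1236, 1251, 1166 and 1190.5 CPM in the ORF2p RIP and 32.2, 36.6 and 34.9 CPM in the mock IP.

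Other spans rich in higher loci were mixed. TTC3, a ubiquitin ligase gene, had 30 of 70 higher and 1 lower. SNHG14, the host transcript of an imprinted snoRNA cluster, had 30 of 127 higher and 2 lower. FAAH2, a lipid hydrolase gene, had 37 of 196 higher and 10 lower, and there the L1PA4 copy at chrX:57381571-57385292 alone held 2433 ± 198 CPM against 70.0 ± 5.92 CPM. The noncoding LOC107986638 had the most loci called higher with ACOXL, 38 each, of 75 and 226 tested. Its summed level was nonetheless lower in the ORF2p RIP, 1051 against 1749 CPM, while its median locus changed by 1.53 on the log2 scale, so counts of loci and summed reads pointed opposite ways there. Among spans with many lower loci, PTPRG, a receptor phosphatase gene, had 69 of 425 lower and 3 higher.

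L1TD1 is a gene derived from L1 ORF1 and expressed in pluripotent cells. Its repeats were looked at after their values had been seen. The 3 abundant repeats in its span are L1-derived and lie on its strand: L1MEd fragments at chr1:62206564-62206907 and chr1:62207100-62207716 and a HAL1ME fragment at chr1:62210513-62211374. The first L1MEd had 1792.5, 1753, 1612 and 1662 CPM in the ORF2p RIP and 118, 137 and 128 CPM in the mock IP, with no overlap and a log2 change of 3.74 (SE 0.55, adjusted p = 2.28e-05). The others changed by 4.20 (SE 0.63) and 3.66 (SE 0.57). The same fragments averaged 14.98 to 21.95 CPM in the ORF1p RIP, below the mock IP, and 322 to 502 CPM in total RNA series bl. Of the 39 tested repeats of the span 6 were higher and 2 lower, and the median log2 change was -0.61, so the change was carried by these abundant fragments.

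Among Alu elements, which are short and noncoding, the young copies differed from the rest. AluYb8 had 840, 1064, 878 and 1153 CPM in the ORF2p RIP and 295, 247 and 299 CPM in the mock IP, with a log2 change of 1.81 (SE 0.21, adjusted p = 1.13e-05). AluYa5 had 769, 740.02, 438 and 830.1 CPM against 279, 201 and 266 CPM, with a log2 change of 1.48 (SE 0.28, adjusted p = 0.000819). Neither pair of groups overlapped. AluSx, an older and far larger subfamily, had 12937 to 16891 CPM against 11026 to 13910 CPM, which overlap, and its log2 change of 0.20 (adjusted p = 0.672) turned to -0.10 when libraries were scaled by their totals. By locus, 85 of 280 Alu copies under 2% diverged (30.4%) were higher, against 508 of 4693 AluY (10.8%), 2291 of 31339 AluS (7.31%) and 1026 of 18699 AluJ (5.49%). Only the youngest copies thus stood well above the 8.35% of all loci.

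**Figure D4:**
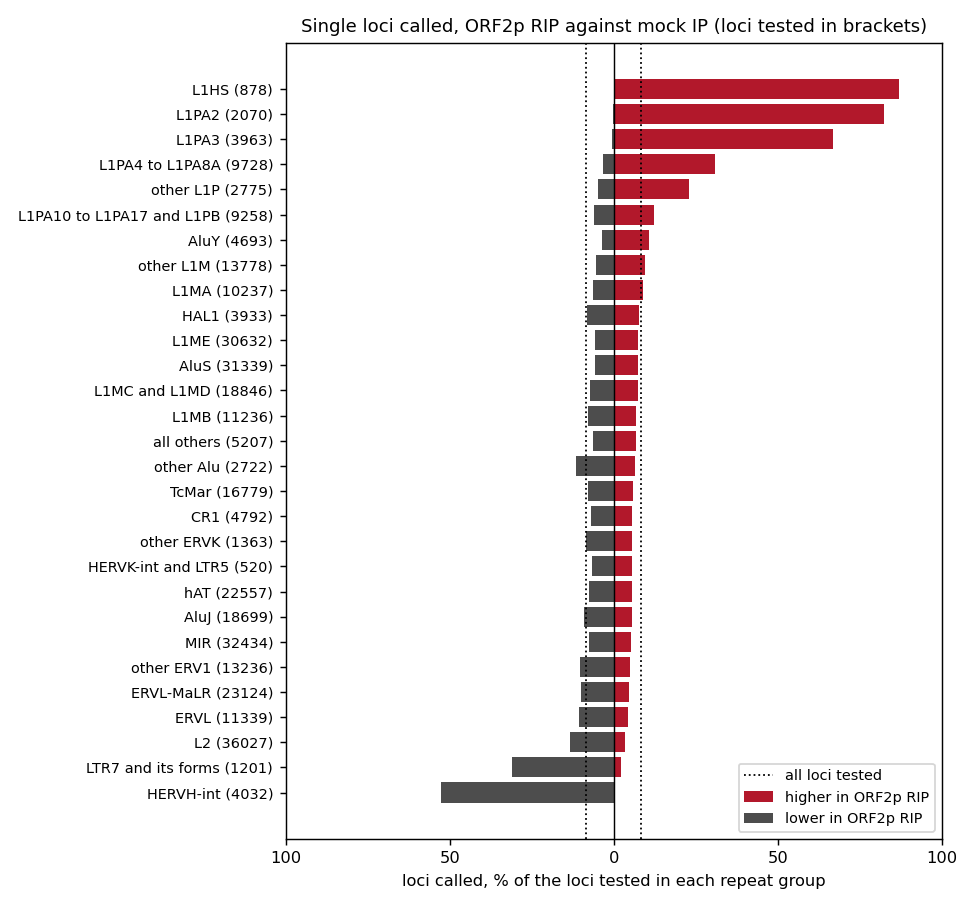
Share of tested loci called higher (to the right) or lower (to the left) in the ORF2p RIP for each of 29 repeat groups, in % of the loci tested in the group, whose number stands in brackets, with dotted lines at the 8.35% and 8.41% of all loci. The young L1 groups reach from 30.7% to 86.9% on the right, and HERVH-int (52.8%) and LTR7 (31.1%) reach farthest to the left.

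HERVH-int, the internal part of an endogenous retrovirus transcribed in pluripotent cells from its LTR7 ends, was the main repeat lower in the ORF2p RIP. It had 78985, 67477, 66467 and 66819 CPM in the ORF2p RIP and 196636, 171507 and 177814 CPM in the mock IP. The groups did not overlap and the log2 change was -1.38 (SE 0.21, adjusted p = 0.000173). Its share of repeat reads was 5.60% to 6.48% against 18.2% to 19.8%, and the mock IP was also above total RNA, with 11.1% to 12.7% in series b and 8.05% to 8.43% in series bl. The ORF2p RIP was lower than every one of these, and the ORF1p RIP, at 3.27% to 5.34%, lower still. Of its loci 2128 of 4032 (52.8%) were lower and 7 higher. LTR7 and its forms had 374 of 1201 loci (31.1%) lower and 26 higher. As a subfamily LTR7Y was called, at -1.16 (SE 0.27, adjusted p = 0.00353), and LTR7, at -0.80 (SE 0.26, adjusted p = 0.0303), missed the 2-fold limit.

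The HERVH-int locus with the largest difference lay at chr12:4018994-4021963 in LINC03141, with 1185, 936, 845 and 935.5 CPM in the ORF2p RIP and 4525, 3694 and 3956 CPM in the mock IP. Its log2 change was -2.06 (SE 0.29, adjusted p = 1.60e-05). The next, at chr3:54636819-54639750, chr7:83460121-83463207, chr20:40269506-40272453 and chr15:96874008-96877214, changed by -1.60 to -2.50. Other subfamilies lower by over 2-fold were smaller. LTR6B had 85.6 ± 11.3 CPM against 275 ± 4.32 CPM, a log2 change of -1.68 (SE 0.37, adjusted p = 0.00263), and HERVS71-int 302 ± 29.7 CPM against 678 ± 32.1 CPM, a log2 change of -1.17 (SE 0.15). The calls of HERVS71-int, HERVH48-int, LTR81C and HERV-Fc1-int ended when the leading locus of each was left out, at log2 changes of -0.96, -0.88, -0.55 and -0.64.

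The 7 HERVH-int loci called higher were examined after the calls were known. The most abundant of them, 1 on chromosome 8 and 1 on chromosome 2, stood beside other repeats that were higher still. At chr2:77088677-77091793 in LRRTM4, a gene of a synaptic adhesion protein, the HERVH-int had 1841, 1516, 1386 and 1408 CPM against 691, 541 and 584 CPM, a log2 change of 1.35 (SE 0.34, adjusted p = 0.00652). Of 5 further HERVH-int parts downstream 2 were called, at 1.46 and 1.57, and 3 were not, at 0.48 to 0.93. The LTR7 at chr2:77093667-77094030 changed by 2.99, the L1M2 at chr2:77094031-77095495 next to it by 3.82, and the L1ME3C fragments at chr2:77096220-77098124 and chr2:77098180-77099600 beyond by 4.71 and 4.89. From the LTR7 onward the change was thus larger than in any HERVH-int part. The second L1ME3C fragment had 3500.5, 4378, 4273 and 3613 CPM against 130.2, 142 and 126 CPM. On chromosome 8 the order was less regular. The HERVH-int at chr8:114282149-114285388 changed by 1.43 (SE 0.32, adjusted p = 0.00253), the LTR7 just before it by 3.03, and an L2a of 301 bases at chr8:114296044-114296344, in LOC105375710, by 5.65 (SE 0.60). Other HERVH-int parts between them, from chr8:114285530 to chr8:114287284, were lower, with log2 changes of -1.28 to -1.48. An AluSz and an L1MC1 farther along, at 0.09 and 0.27, were not called.

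LINC-ROR, a noncoding RNA of pluripotent cells that starts in a HERVH copy, showed both directions within a single span. Its HERVH-int at chr18:57065100-57068321 had 99.7, 106, 88.9 and 78.7 CPM in the ORF2p RIP and 321, 314 and 294 CPM in the mock IP, a log2 change of -1.73 (SE 0.34, adjusted p = 0.000651). Its other HERVH-int at chr18:57068958-57072049 had a log2 change of -0.96 (SE 0.36, adjusted p = 0.0670) and was not called. The 7 other abundant repeats of the span, among them an L3, a MIR, an AluJb and an MLT1J, were higher by 3.28 to 4.23. The MLT1J at chr18:57057623-57058050 had 296, 178, 173 and 246 CPM against 11.4, 12.3 and 12.1 CPM. In total RNA it averaged 13.7 CPM in series b and 6.68 CPM in series bl, near the mock IP.

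**Figure D5:**
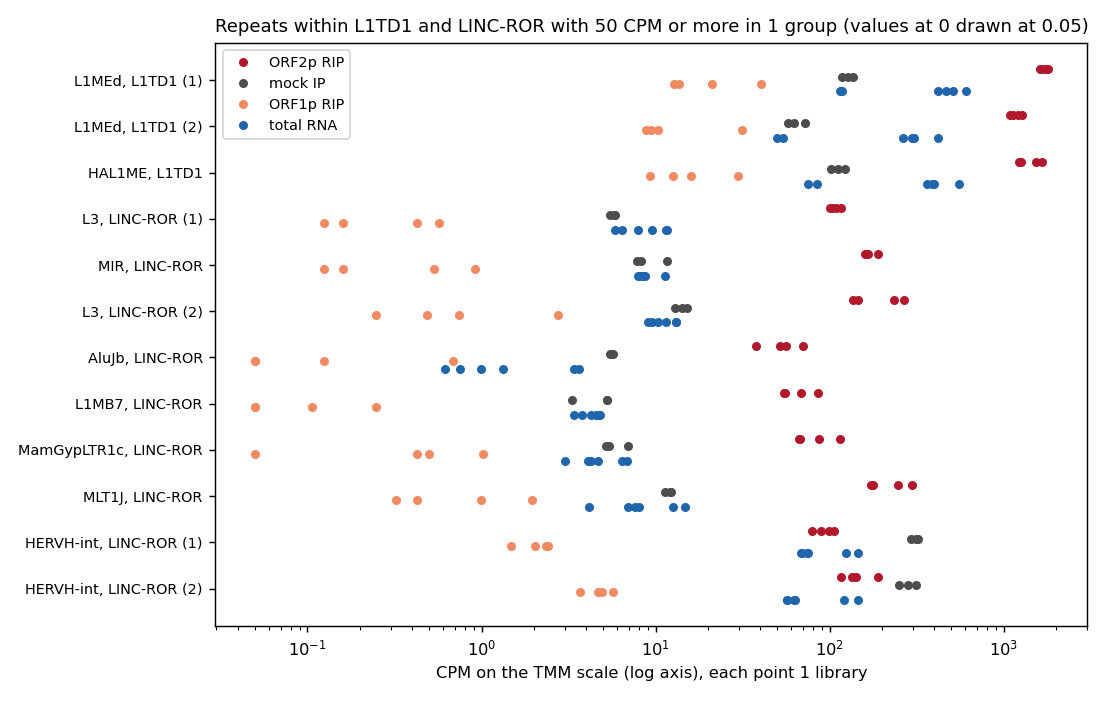
CPM on the TMM scale (log axis) in each library for the repeats inside the L1TD1 and LINC-ROR spans with at least 50 CPM in the ORF2p RIP or the mock IP, with values of 0 drawn at 0.05. All but the HERVH-int rows have the ORF2p RIP points to the right of the mock IP (1612 to 1793 against 118 to 137 CPM in the top row), and both HERVH-int rows have them to the left. The LINC-ROR rows other than HERVH-int reached 50 CPM only through the ORF2p RIP.

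The largest fitted changes fell on loci nearly empty in the mock IP, and not all were even across the ORF2p RIP. An AluY at chrY:19552583-19552892 led with a log2 change of 10.65 (SE 1.63, adjusted p = 4.18e-05), on 6.49, 1218, 429 and 614 CPM against 0.427, 0.365 and 0.225 CPM. Replicate 1 of the ORF2p RIP was thus far below the other 3. An L1MC of 1545 bases at chr7:143523016-143524560, outside gene spans, was even, with 196, 209.7, 189.5 and 196 CPM against 1.22, 1.88 and 2.10 CPM and a log2 change of 6.83 (SE 0.73, adjusted p = 3.57e-07). L1MD2 fragments of 473 and 296 bases in MAGEA3-DT, a noncoding RNA by a cancer-testis antigen gene, changed by 6.87 and 6.81. The longer would not have passed the minimum without its ORF2p RIP reads, with 78.1 reads in all other libraries, so its call is given only as a description. An AluSx1 in SRGAP2B, a member of a recently duplicated gene family whose copies can share reads, changed by 7.48 (SE 0.66).

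Loci with the largest fitted changes downward included several in a short region of chromosome 21 and HERVH parts. Between 8200000 and 8500000 on chromosome 21, 40 of 96 tested loci were lower and 3 higher, and the median log2 change was -1.96. This region was set after those lower loci had been seen and counts them in, so its values are a description. An L1PREC2 fragment at chr21:8458256-8458525 had 5.11, 2.46, 1.68 and 1.44 CPM against 42.8, 30.01 and 32.3 CPM, a log2 change of -3.72 (SE 0.73, adjusted p = 0.000718). Total RNA series b averaged 18.2 CPM there and series bl 2.11 CPM. A LTR7Y at chr14:31250670-31251138 had 2.02, 1.35, 1.57 and 2.06 CPM against 32.2, 23.6 and 20.9 CPM, a log2 change of -3.85 (SE 0.76, adjusted p = 0.000765). L2 elements, ancient and inactive LINEs, were lower in smaller steps at many loci, 4782 of 36027 (13.3%) against 1202 higher (3.34%). Their share of reads was 5.70% to 6.17% against 8.06% to 8.27%, a share that falls as that of L1 grows, and the part of this in their calls was not tested.

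Chromosomes differed in the share of loci called higher. It was 14.4% of 6969 loci on chromosome 19, where the ZNF208 repeats lie, 10.3% of 24414 on X and 28.5% of 847 on Y, and 4.96% of 10926 on chromosome 17, against 8.35% over all.

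The called loci were also set beside total RNA, as values with no test. They had been selected for high ORF2p RIP values, and no share over all tested loci stands beside them. The shares are therefore descriptions and no measure of enrichment over total RNA. Of the 29006 loci called higher, 23373 (80.6%) had all 4 ORF2p RIP libraries above all 6 total RNA libraries. Among full-length L1HS, L1PA2 and L1PA3 this was so for 2413 of 2447 (98.6%), among older L1 for 9208 of 11732 (78.5%) and outside L1 for 9224 of 12159 (75.9%). The median full-length young locus called higher had 16.5 CPM in the ORF2p RIP, 2.06 in the mock IP, 1.12 and 2.78 in total RNA series b and bl and 9.73 in the ORF1p RIP.

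The scale decides how many repeats count as lower. The median fitted log2 change over all loci was -0.31, so values are best read against it. Scaling by library totals moved that median to -0.61 and the calls to 24056 higher and 50555 lower, and moved the subfamily calls to 43 higher and 64 lower, with a median of -0.34 in place of -0.03. The full-length young L1 loci gave 2395 higher and 0 lower on that scale. Leaving out a mock IP library took the number of loci called lower to 16602 (without replicate 1), 18156 (without replicate 2) and 18299 (without replicate 3), and leaving out ORF2p RIP replicate 1 took the lower subfamilies from 16 to 26. Among the 100131 loci whose counts were whole numbers in all 7 libraries, where no read was shared out by fractions, 2218 were higher and 6991 lower. Of the L1 loci among them 722 were higher and 1556 lower, and no full-length young L1 copy was among them. Calls there ran mostly downward in L1 and outside it. Of the calls 31.7% were higher in L1 and 21.6% outside L1, with median log2 changes of -0.401 and -0.559. Loci just inside the coverage minimum resembled those just outside it: in a fit with a lower minimum, 820 of 28749 loci with a summed count from 100 to under 110 and 867 of 33401 from 90 to under 100 were higher.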

How the data were processed

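The authors deposited a table of unscaled expected counts for each repeat locus, a unit read from the values. The submitters' processing notes name STAR and hg38, with no version. How reads that match several copies were counted is not given in those sources. Of 60 value columns 17 matched a labelled sample, and 43 were not used. Of these 43, 4 are headed rabbitIgGcontrol, while the mock IP used here carries mIgG. Which control matches the anti-ORF2 antibody is not stated, and the effect of this choice was not tested. RNA was eluted with TRIzol and libraries were made with a kit that depletes ribosomal RNA, per the labels' protocols.

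Counts were summed by subfamily and the sums rounded, filtered with filterByExpr (min.count 10) and scaled by TMM. Locus counts were rounded singly and used the same scale. The contrast was taken from edgeR 4.0.16 in R 4.3.3 (glmQLFit, glmQLFTest) over the 17 labelled libraries, fitted by group alone. SE is the fitted log2 change over the square root of F. Group means of shares were compared by exact two-sided permutation (SciPy 1.17.1). Gene spans are RefSeq's (GRCh38.p14, 59788 spans, strand known for 27304). The steps were tested on simulated data.

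Named features were the 10 subfamilies and 10 loci with the largest change in each direction among those called, with a mean of at least 4 CPM (loci 10 CPM, and 10 reads in the lower group) in 1 group and no overlap, the 10 higher and 5 lower loci with the largest difference in level, the leading locus of each always-named subfamily, the 5 leading full-length young L1 copies, and the 10 spans with the most higher loci. L1HS, L1PA2 to L1PA8A, L1PA13, L1PA17, AluYa5, AluYb8, AluSx, HERVH-int, LTR7 and HERVK-int were always named. Members and lists were chosen with earlier results of these data known. PTPRG, L1TD1, LINC-ROR, the region of chromosome 21 and the surroundings of HERVH loci were chosen after values were seen. Alternatives covered scaling, DESeq2 1.42.0, filters, the samples fitted, a replicate block, leading loci and each library left out.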

Additional observations from a re-analysis of the deposited data

Results flagged for a closer look

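In 98 groups of 4 ORF2p RIP values examined, 3 had a library apart from the other three by more than the 95% limit of Dixon's test, which chance alone crosses in about 1 of 20 groups. HERVH-int had 78985 CPM in ORF2p RIP replicate 1 and 66467 to 67477 CPM in the others. The L1M2 in LRRTM4 at chr2:77094031-77095495 had 4138 CPM in replicate 2 and 3671 to 3732 CPM in the others. Older L1 reads inside gene spans lay on the gene's strand for 60.8% in replicate 1 and 60.6% in each of the others, a difference of small size.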

How the results depend on the processing

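Of 1611 alternative values computed for these results, 1567 were judged the same. For a named subfamily or locus this meant the same direction and side of the threshold, and for a share only the same direction. For a count it meant a value within a set fold of the main count. The 38553 loci called lower by DESeq2 were thus judged the same as the 29223 of the main fit. With library totals, 43 subfamilies were higher and 64 lower and 50555 loci lower. Of the called subfamilies 40.2% were higher on that scale against 81.8% with TMM. TMM factors set without L1 and HERVH loci gave 10 lower subfamilies, and leaving out each leading locus gave 37 higher and 9 lower. A minimum of 500 left 61524 loci, of which 13051 were higher (7804 of them L1) and 9423 lower. Loci with whole-number counts gave 2218 higher (722 of them L1) and 6991 lower (1556 of them L1), with 0 full-length young L1 and 0 HERVH-int called, since 0 and 2 such loci were tested. The log2 change of LTR22A turned to -0.56 without its leading locus and that of AluSx to -0.10 with library totals. Leaving out a library in turn gave 66 to 72 higher and 13 to 26 lower subfamilies, 20637 to 27228 higher and 16602 to 27114 lower loci, 12537 to 16066 higher L1 loci, 2271 to 2414 higher full-length young L1 loci and 1537 to 1923 lower HERVH-int loci. Replicate numbers did not pair the libraries (correlations of same-numbered deviations 0.11, 0.20 and -0.08). A replicate block gave 70 higher and 14 lower subfamilies and 24579 loci called higher and 21223 loci called lower.

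Depth limits the loci near the minimum, where single reads weigh most. Reads from near-identical copies, the run of each group and the total RNA marks set limits that these files do not resolve, and the part of each in the results was not tested.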
